A study of Mus musculus with 24 samples.

Results

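Adgrg1, Fam43a and Slc29a3 were examined in C2C12 cells together with the other expressed genes around them on chromosomes 8 and 16. C2C12 is an immortalised mouse myoblast line. The cells used had been given, by lentivirus, a gene for uncoupling protein 1 (UCP1) that is switched on by the antibiotic doxycycline. UCP1 sits in the inner mitochondrial membrane and lets protons leak back into the matrix. The 9 members, among 56748 genes measured, were Adgrg1 and its neighbour Adgrg3 on chromosome 8, Fam43a and its neighbours Tmem44, Lsg1, Xxylt1, Atp13a3 and Acap2 on chromosome 16, and Slc29a3 on chromosome 10. Adgrg1, Fam43a and Slc29a3 were chosen because they were much higher with doxycycline than with water in these same libraries, and the others for lying beside the first pair. Their doxycycline differences are therefore given as a description, without a test.

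The study measured RNA in 24 libraries, 4 in each of 6 groups. The water arm consisted of BSA (51 µM bovine serum albumin), OA (300 µM oleic acid, a fatty acid) and OOA (1 µM oligomycin, a blocker of ATP synthase, with 300 µM oleic acid). The doxycycline arm, Dox_BSA, Dox_OA and Dox_OOA, received the same treatments. Doxycycline or water was added 24 h after seeding and 24 h before treatment, and RNA was taken after 16 h of treatment. All 6 groups carried the UCP1 vector, no group received doxycycline without it, and effects of doxycycline and of UCP1 therefore cannot be told apart here. The labels do not state whether the line was a clone or whether the 4 libraries of a group were separate cultures, so the p-values cover only the spread among libraries, and that spread may be technical. Libraries held 20370651 to 29410667 reads. In bulk RNA, fewer cells of a type and less RNA per cell cannot be told apart. All 7 myoblast markers examined, among them Myod1, Des and Chrna1, reached at least 1 FPKM in every library, and 14 of 15 markers of adipocytes, endothelium, leukocytes, epithelium and glia stayed below 1 FPKM in all of them. The exception was Cd68, at 0.458 to 2.46 FPKM, and Adipoq, Cidec, Adgre1, Krt8, Krt18 and Sox10 were at 0 throughout. The summed level of the 7 myoblast markers was 225 to 252 FPKM in BSA, 171 to 184 in OA and 136 to 143 in OOA, and 230 to 247, 182 to 195 and 182 to 201 in the matching doxycycline groups. The markers did not all follow this sum. Mean Myf5 was 4.76 FPKM in OA, 18.6 in OOA and 8.15 in Dox_OOA. Des was at 42.9, 43.7 and 55.5 there, and Pax7 at 1.72, 1.96 and 2.01. Myod1, Cdh15, Myog and Chrna1 were lower in OOA than in OA. The summed level of the 15 other markers was 1.28 to 1.93 FPKM in OOA, 2.002 to 2.84 in Dox_OOA and 1.45 to 2.995 in the other groups. The part of these shifts in the results below was not tested. FPKM is the number of fragments scaled by gene length and library size.

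Adhesion G protein-coupled receptors such as Adgrg1 (also called Gpr56) carry a long extracellular part that is cleaved from the membrane part and binds matrix proteins. Collagen III and transglutaminase 2 are known ligands of Adgrg1, which signals through G proteins, and in mouse muscle it has been linked to myoblast fusion and growth under load. Adgrg3 is a receptor of the same family best known from leukocytes. Slc29a3 is an equilibrative nucleoside transporter of intracellular membranes, and Fam43a is a gene whose function is poorly described. Among the genes around Fam43a, Xxylt1 adds a terminal xylose to O-glucose sugars on Notch receptors, and Lsg1 is a GTPase known from yeast to release the export adaptor Nmd3 from the large ribosomal subunit. Atp13a3 is a P-type ATPase of endosomes involved in polyamine transport, Acap2 a GTPase-activating protein for ARF6, and Tmem44 a membrane protein of poorly described function.

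All positions of genes are on GRCm39, as in the deposited table, and all 9 members are protein-coding. Distances from start to start use the lowest coordinate of each gene, which for a gene on the minus strand is where transcription ends. Adgrg1 (ENSMUSG00000031785) spans 95701379 to 95740845 of chromosome 8 on the plus strand, and Adgrg3 (ENSMUSG00000060470) follows on the same strand at 95744320 to 95771878, after a gap of 3.47 kb. Ucp1 (ENSMUSG00000031710), whose mouse gene lies on the same chromosome, starts 11.7 Mb before Adgrg1. Fam43a (ENSMUSG00000046546) occupies 30418541 to 30421615 of chromosome 16 on the plus strand, and its exonic length of 3075 bases equals its span. On its left, Lsg1 (ENSMUSG00000022538) lies on the minus strand at 30379312 to 30406410, so that both genes are read away from each other across a gap of 12.1 kb. Further left lie Tmem44 (ENSMUSG00000022537, 30330673 to 30369660) and Atp13a3 (ENSMUSG00000022533, 30131241 to 30224793), both on the minus strand. On its right, Xxylt1 (ENSMUSG00000047434) lies at 30773962 to 30900250 and Acap2 (ENSMUSG00000049076) at 30911230 to 31020063, again on the minus strand. From Atp13a3 to Acap2 the table lists 16 genes, and the 6 that passed the filter on low values are the 6 members named here. Slc29a3 (ENSMUSG00000020100) lies on chromosome 10 at 60547851 to 60588573, minus strand. Adgrg1, Adgrg3, Fam43a, Lsg1, Atp13a3 and Slc29a3 overlap no other gene of the table, whereas Tmem44, Xxylt1 and Acap2 each overlap 1, and whether counting used the strand of a read is not stated in the labels or file headers.

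Starts of 8 of the 9 members were found in the RefSeq promoter table, built on GRCm38.p6, a different build from that of the expression table. Each entry holds 250 bases before the start and 50 after it. The promoters of the genes that were high with doxycycline are shown, with Adgrg3 as the near neighbour that was not. Capitals mark matches, on either strand, to the TATA box (TATAAA), the CCAAT box (CCAAT), the GC box (GGGCGG), the cyclic AMP response element (TGACGTCA), the AP-1 site (TGANTCA) or the composite element bound by ATF4 (TGATGNAAN).
Adgrg1 first start, chr8:94976859-94977158, plus strand: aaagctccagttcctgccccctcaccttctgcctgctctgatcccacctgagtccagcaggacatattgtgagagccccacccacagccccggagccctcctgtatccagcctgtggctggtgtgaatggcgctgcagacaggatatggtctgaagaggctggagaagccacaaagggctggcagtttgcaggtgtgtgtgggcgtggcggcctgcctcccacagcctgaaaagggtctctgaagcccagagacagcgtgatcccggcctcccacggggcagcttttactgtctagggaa
Adgrg1 second start, chr8:94984149-94984448, plus strand: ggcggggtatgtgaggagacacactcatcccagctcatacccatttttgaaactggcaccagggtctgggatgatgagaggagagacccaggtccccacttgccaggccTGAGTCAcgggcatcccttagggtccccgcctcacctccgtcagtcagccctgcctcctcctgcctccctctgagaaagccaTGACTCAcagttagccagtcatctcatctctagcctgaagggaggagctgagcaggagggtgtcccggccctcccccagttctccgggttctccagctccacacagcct
Adgrg3, chr8:95017442-95017741, plus strand: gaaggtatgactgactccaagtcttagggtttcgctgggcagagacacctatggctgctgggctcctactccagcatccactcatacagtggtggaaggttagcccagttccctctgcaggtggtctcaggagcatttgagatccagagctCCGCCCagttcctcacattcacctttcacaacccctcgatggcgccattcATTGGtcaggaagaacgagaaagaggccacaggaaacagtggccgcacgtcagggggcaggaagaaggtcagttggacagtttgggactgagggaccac
Fam43a, chr16:30599473-30599772, plus strand: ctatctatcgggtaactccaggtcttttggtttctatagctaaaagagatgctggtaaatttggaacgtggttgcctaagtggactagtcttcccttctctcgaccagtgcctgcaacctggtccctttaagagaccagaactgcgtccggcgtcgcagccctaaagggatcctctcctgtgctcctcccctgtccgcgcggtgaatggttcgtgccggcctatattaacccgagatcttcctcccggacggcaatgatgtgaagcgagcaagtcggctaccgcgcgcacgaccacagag
Tmem44, chr16:30550529-30550828, minus strand: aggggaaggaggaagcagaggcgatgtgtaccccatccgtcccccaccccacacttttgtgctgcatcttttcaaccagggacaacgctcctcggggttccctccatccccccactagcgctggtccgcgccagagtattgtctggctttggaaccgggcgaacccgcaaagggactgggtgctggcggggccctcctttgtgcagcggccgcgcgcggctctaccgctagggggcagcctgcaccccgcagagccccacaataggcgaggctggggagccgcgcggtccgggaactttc
Xxylt1, chr16:31081383-31081682, minus strand: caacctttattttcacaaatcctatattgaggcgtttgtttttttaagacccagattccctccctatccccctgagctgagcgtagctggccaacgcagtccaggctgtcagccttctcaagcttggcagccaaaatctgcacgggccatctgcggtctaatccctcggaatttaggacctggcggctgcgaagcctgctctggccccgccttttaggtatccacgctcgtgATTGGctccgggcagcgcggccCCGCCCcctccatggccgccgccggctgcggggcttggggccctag
Slc29a3, chr10:60752733-60753032, minus strand: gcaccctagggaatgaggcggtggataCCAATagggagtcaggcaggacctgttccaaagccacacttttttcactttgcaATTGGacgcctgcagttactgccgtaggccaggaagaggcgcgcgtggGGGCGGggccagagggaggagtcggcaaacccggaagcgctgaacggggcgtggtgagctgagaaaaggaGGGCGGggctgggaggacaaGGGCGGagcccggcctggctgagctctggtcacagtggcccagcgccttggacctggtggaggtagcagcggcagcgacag

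The promoters of Adgrg1, Fam43a and Slc29a3 had none of the searched motifs in common to all of them. The stretches before Fam43a and Tmem44 held no match to any, and that before the first start of Adgrg1 none to the capitalised ones. The second start of Adgrg1 held 2 matches to TGANTCA, the pattern bound by AP-1 factors, which 7.81% of all 32851 promoters of the table contain. Slc29a3 held 3 matches to GGGCGG, the GC box, which 35.7% of promoters contain, and 2 to CCAAT, which 37.4% contain. Xxylt1 and Adgrg3 held 1 match to each of these last motifs. The E-box pattern CANNTG, not capitalised, was in 72.3% of promoters and in those of Adgrg1, Adgrg3, Xxylt1 and Slc29a3 but not in those of Fam43a and Tmem44 among the ones shown. TATAAA (13.6% of promoters) and TGACGTCA (1.79%) were in none of the members' promoters, and TGATGNAAN (3.95%) was only in that of Lsg1 among the 8. Matches of different motifs overlapped once in the promoters shown, where a CCAAT match of Slc29a3 shared bases with an E-box. The GC content was 55.0% for Fam43a, 60.7% for each Adgrg1 start and 64.3% for Slc29a3, against a median of 52.7% over all promoters. These matches describe the letters only.

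Adgrg1 was low in the water arm and high in the doxycycline arm under all 3 treatments. Its FPKM in BSA was 2.07, 1.81, 1.81 and 1.81 in the 4 libraries, against 25.1, 23.3, 23.8 and 24.9 in Dox_BSA. In OA it was 1.25, 1.14, 1.52 and 1.39, against 21.7, 22.2, 21.8 and 20.9 in Dox_OA. In OOA it was 0.567, 0.581, 0.765 and 0.612, against 11.5, 12.4, 11.1 and 11.1 in Dox_OOA. No doxycycline library came near a water library, and the counts behind these values were 67 to 241 reads per library with water and 1495 to 3895 with doxycycline. The ratio of mean FPKM was 12.9 in BSA, 16.3 in OA and 18.2 in OOA. On the log2(FPKM + 1) scale, which understates changes of low genes, the differences were 3.14, 3.29 and 2.94, each with a standard error (SE) of 0.05. Among 12904 genes with sufficient expression (at least 1 FPKM in at least 4 libraries), Adgrg1 ranked second in each treatment, behind Ucp1 alone.

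Ucp1 itself, whose reads from the vector and from the mouse gene were not separated here, averaged 5.24 ± 0.70 FPKM (SD, n = 4) in BSA and 337 ± 4.08 in Dox_BSA. Its mean was 6.84 in OA and 322 in Dox_OA, and 4.42 in OOA and 215 in Dox_OOA.

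Adgrg3, which begins 3.47 kb after Adgrg1 ends, showed no such difference. Its FPKM was 1.89, 2.04, 2.02 and 1.85 in BSA and 1.42, 1.43, 1.75 and 1.57 in Dox_BSA, so every doxycycline library lay below every water library. With oleic acid the order was the other way, at 1.78 on average in OA and 1.96 in Dox_OA, and the libraries overlapped. In OOA and Dox_OOA the means were 2.54 and 2.41, also with overlap. The log2 differences were -0.22, 0.09 and -0.05 (SE 0.06 each). Adgrg5, the remaining member of this receptor cluster, which did not pass the filter, stayed at or below 0.371 FPKM in every library.

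Fam43a ranked next after Ucp1 and Adgrg1 in all 3 treatments. Its FPKM was 8.59, 9.55, 8.37 and 7.45 in BSA, against 50.1, 51.1, 40.03 and 43.7 in Dox_BSA. In OA it was 8.78, 8.66, 6.33 and 8.16, against 44.1, 49.1, 39.6 and 38.9 in Dox_OA. In OOA it was 7.05, 5.69, 5.42 and 5.999, against 49.4, 55.5, 43.7 and 49.3 in Dox_OOA. The lowest doxycycline library, at 38.9 FPKM, exceeded the highest water library, at 9.55, across all treatments. Ratios of the means were 5.45, 5.38 and 8.19 in BSA, OA and OOA, and the log2 differences 2.31, 2.29 and 2.84 (SE 0.10 each). In absolute terms the gain was 37.7, 34.9 and 43.4 FPKM, larger than the 22.4, 20.3 and 10.9 FPKM gained by Adgrg1.

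Slc29a3, the nucleoside transporter, stood above Adgrg1 in the water arm, and its ratio was smaller than those of Adgrg1 and Fam43a. Its FPKM was 6.46, 6.33, 7.80 and 7.52 in BSA and 15.1, 16.0, 16.2 and 15.5 in Dox_BSA. In OA it was 7.71, 7.35, 7.23 and 7.53, against 15.9, 15.9, 14.1 and 13.8 in Dox_OA. In OOA it was 6.87, 7.08, 7.43 and 6.64, against 12.8, 12.97, 12.7 and 13.7 in Dox_OOA. All doxycycline libraries again lay above all water libraries. The ratios of 2.23, 2.004 and 1.86 corresponded to log2 differences of 1.06, 0.91 and 0.81 (SE 0.06 each), which ranked 19th, 46th and 239th of 12904. On the log2(FPKM + 1) scale, only Ucp1, Adgrg1, Fam43a and Slc29a3 itself were at or above the Slc29a3 difference in all 3 treatments. By ratio of means, Etl4, a low gene described below, also stood above Slc29a3, at 4.44, 5.20 and 3.93 in BSA, OA and OOA. Etl4 passed the filter on low values only through the doxycycline arm, so its difference had to appear.

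**Figure D1:**
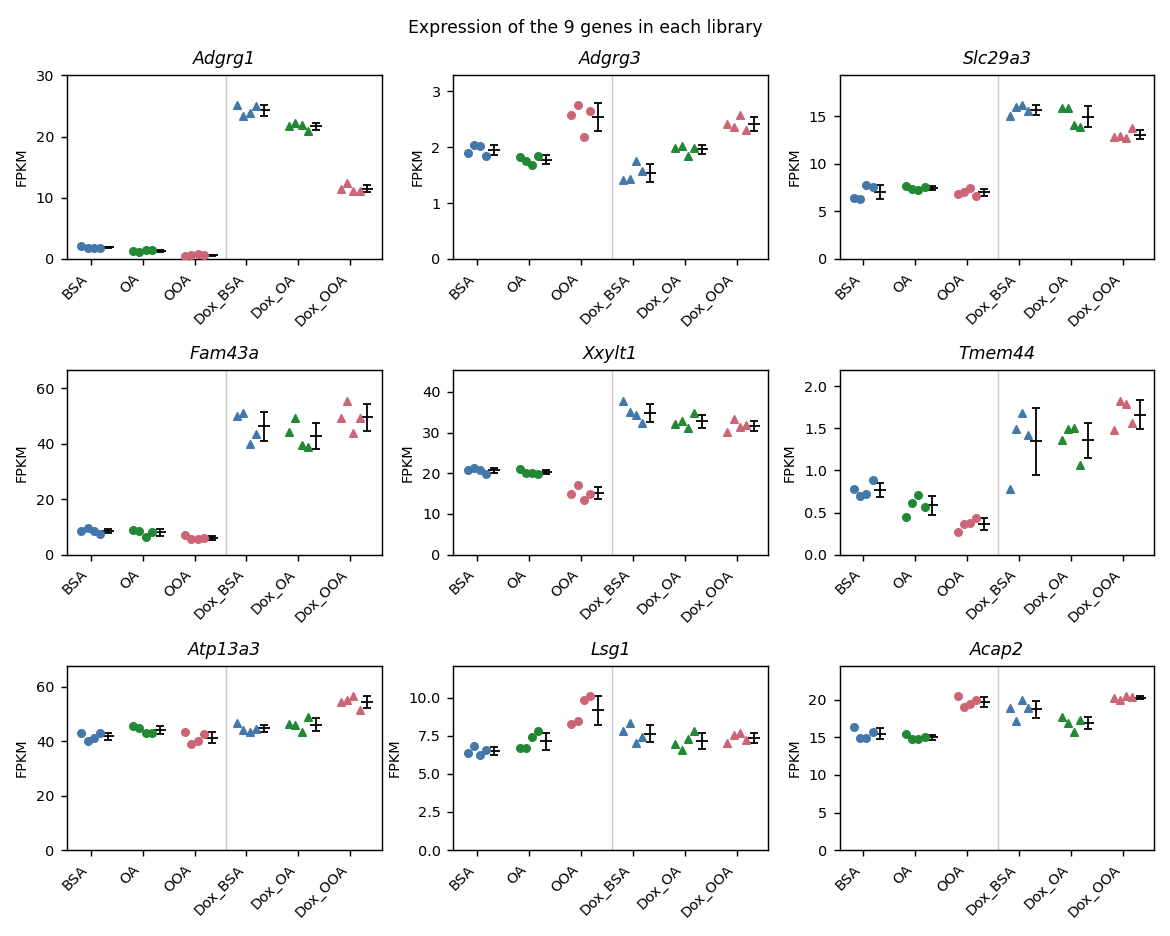
FPKM of each of the 9 members in each library, by group; circles are water libraries, triangles doxycycline libraries, and bars to the right of the points are means ± SD of 4 libraries. Adgrg1, Fam43a, Slc29a3 and Xxylt1 show doxycycline libraries above all water libraries, from 11.1 against at most 2.07 FPKM for Adgrg1 to 12.7 against at most 7.80 FPKM for Slc29a3, whereas Adgrg3 and Lsg1 overlap across the arms.

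Of the 5 neighbours of Fam43a, Xxylt1 and Tmem44 were the higher ones with doxycycline in each treatment. Xxylt1, the xylosyltransferase whose lowest coordinate lies 355 kb to the right of that of Fam43a, was at 20.8, 21.4, 20.7 and 19.9 FPKM in BSA and at 37.8, 35.0, 34.3 and 32.3 in Dox_BSA. Its transcription start lies 482 kb from that of Fam43a. In OA and Dox_OA its means were 20.3 ± 0.58 and 32.7 ± 1.58 FPKM (SD, n = 4), and in OOA and Dox_OOA 15.1 ± 1.51 and 31.6 ± 1.26. Its ratios were 1.68, 1.61 and 2.10, its log2 differences 0.72, 0.66 and 1.03 (SE 0.05 each), and its arms did not overlap in any treatment. An overlapping gene on the same strand, Gm15742, held 12 reads over the 12 water libraries and 91 over the 12 doxycycline libraries, against 20747 and 38742 for Xxylt1.

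Tmem44 was below 1 FPKM in all 12 water libraries and at or above it in 11 of 12 doxycycline libraries, and passed the filter only through the doxycycline arm, so that its difference had to appear. Its FPKM was 0.774, 0.699, 0.718 and 0.890 in BSA and 0.774, 1.499, 1.69 and 1.43 in Dox_BSA, where the first library lay within the water range. In OOA it was 0.263, 0.363, 0.371 and 0.438, and in Dox_OOA 1.48, 1.83, 1.79 and 1.56. Ratios of its means were 1.75 in BSA, 2.33 in OA and 4.64 in OOA. Its log2 differences of 0.39, 0.57 and 0.97 became 0.69, 1.09 and 1.95 with a pseudocount of 0.1 and 0.71, 1.26 and 2.27 with limma-voom, in OA and OOA from below the values printed for Xxylt1 to above them. The values came from 51 to 186 reads per water library and 197 to 418 per doxycycline library. The antisense gene that overlaps Tmem44 held 43 reads over the water arm and 48 over the doxycycline arm, against 1440 and 3874 for Tmem44.

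Lsg1, the neighbour nearest to Fam43a, had no common direction. The GTPase averaged 6.49 ± 0.25 FPKM (SD, n = 4) in BSA and 7.64 ± 0.56 in Dox_BSA, 7.14 ± 0.55 in OA and 7.15 ± 0.53 in Dox_OA, and 9.15 ± 0.93 in OOA and 7.37 ± 0.32 in Dox_OOA. Its doxycycline libraries were all above the water libraries with BSA, mixed among them with oleic acid, and all below them with oligomycin, for log2 differences of 0.20, 0.00 and -0.28 (SE 0.06 each). Atp13a3, the endosomal ATPase and the most abundant member in the water arm, was at 41.7 and 44.7 FPKM in BSA and Dox_BSA, 44.1 and 46.1 in OA and Dox_OA, and 41.3 and 54.4 in OOA and Dox_OOA. Its difference was thus largest with oligomycin, at a ratio of 1.32. Acap2, the outermost member, was at 15.5 and 18.8 FPKM with BSA, 15.0 and 16.9 with oleic acid and 19.7 and 20.3 with oligomycin, and its arms overlapped only in the last.

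Every doxycycline library lay above every water library for 7 of the 9 members in BSA, 6 in OA and 6 in OOA. Over all 12904 genes this held for 3.46%, 7.33% and 19.0%. Because the doxycycline difference chose 3 of the members, nothing is read from these counts.

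Distance did not order the differences around Fam43a. Lsg1 at a gap of 12.1 kb had differences between -0.28 and 0.20, Tmem44 at 48.9 kb between 0.39 and 0.97 on this scale, Atp13a3 at 194 kb between 0.06 and 0.39, Xxylt1 at 352 kb between 0.66 and 1.03, and Acap2 at 490 kb between 0.04 and 0.26. The median difference over all genes was -0.00 in BSA, -0.01 in OA and -0.01 in OOA.

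**Figure D2:**
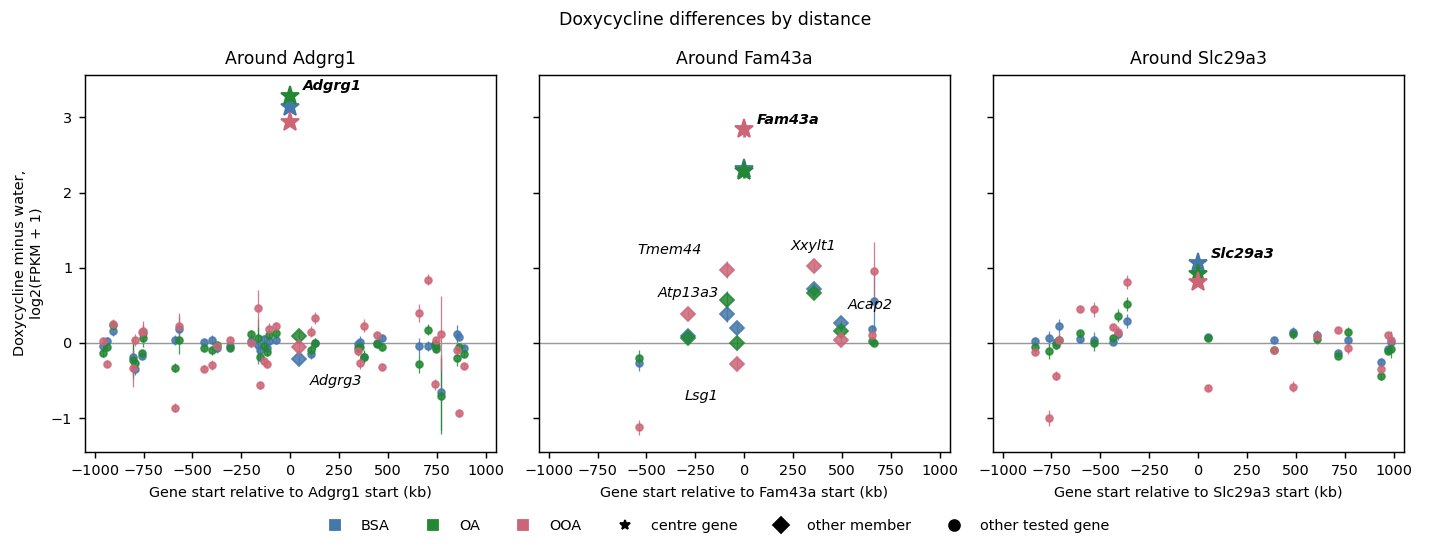
Doxycycline minus water difference on the log2(FPKM + 1) scale (vertical axis) against the distance of a gene's start from the start of Adgrg1, Fam43a or Slc29a3 in kb, for all tested genes within 1 Mb; colours are treatments and bars are SE. In each treatment the centre gene lies above every tested gene around it on this scale. The gap was narrowest in OOA, where Slc29a3 was at 0.812 (SE 0.06) and Vsir at 0.806 (SE 0.09), closer than either SE. The centre genes were chosen for high doxycycline differences in these libraries, so this order is not read as a result.

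The genes within 1 Mb of the 3 that are not members were not selected on their values and were tested with limma, with adjustment over all 12904 genes. Around Adgrg1, 35 such genes were tested, and 2 passed in BSA, 5 in OA and 19 in OOA. The shares of these neighbours, 5.71%, 14.3% and 54.3%, stood beside 2.18%, 11.3% and 45.7% of all genes. None of the 35 rose in BSA by limma, with 1 higher at an unadjusted p below 0.05 and 0 by limma-voom on recovered reads. Those that fell in BSA were Mt1, a metallothionein (log2 difference -0.35, adjusted p = 0.0189), and Nup93, a nuclear pore protein (-0.17, adjusted p = 0.0447), and both start more than 0.7 Mb away. The nearest tested gene on the left, Ccdc102a at 71.9 kb, differed by 0.04 in BSA and 0.13 in OA, without passing, and rose by 0.23 ± 0.05 (SE) in OOA (adjusted p = 0.000642). Beyond it, Dok4 at 111 kb did not pass in any treatment. On the right, the kinesin Kifc3 at 125 kb differed by -0.01 and -0.00 in BSA and OA and rose by 0.33 in OOA (adjusted p = 0.000798).

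The strongest calls around Adgrg1 came with oligomycin and lay 155 to 889 kb away. Slc38a7, an amino acid transporter, fell from 49.3 FPKM in OOA to 25.3 in Dox_OOA (log2 difference -0.94 ± 0.05 SE, adjusted p = 2.56e-13), with 0.08 in BSA. Herpud1, a gene of the endoplasmic reticulum stress response, fell from 153.8 to 84.2 FPKM (-0.86, adjusted p = 5.85e-11). Ndrg4 rose from 2.84 to 5.89 FPKM (0.84, adjusted p = 1.52e-09), whereas Ciapin1, Got2 and Setd6 fell by 0.57, 0.30 and 0.55 on the log2 scale.

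Around Fam43a, only 3 non-members were expressed enough to be tested, and none passed in BSA or OA by limma. At an unadjusted p below 0.05 there were 2 in BSA and 0 in OA, and limma-voom called 1 in BSA and 0 in OA. In OOA, Hes1, a transcriptional repressor downstream of Notch that starts 535 kb to the left, fell from 6.48 to 2.43 FPKM (-1.12 ± 0.10 SE, adjusted p = 3.62e-09). Ppp1r2 at 652 kb, an inhibitor of protein phosphatase 1, differed by 0.19, 0.02 and 0.11 without passing. The remaining gene, an unnamed microRNA gene (ENSMUSG00002076509), held 3 reads with water and 24 with doxycycline in all. It reached 1 FPKM in 0 water and 4 doxycycline libraries and so passed the filter only through the doxycycline arm. Its difference had to appear, and its call in OOA, included in the counts, is not read as a result.

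Around Slc29a3, 18 genes were tested, of which 1 passed in BSA, 5 in OA and 12 in OOA. These shares, 5.56%, 27.8% and 66.7%, stood beside 2.18%, 11.3% and 45.7% of all genes. Ppa1, an inorganic pyrophosphatase starting 936 kb away, fell in all 3 treatments (-0.26, -0.44 and -0.35, adjusted p = 0.019, 3.42e-05 and 3.15e-05). Vsir, an immune checkpoint receptor that starts 365 kb to the left, rose by 0.52 ± 0.09 (SE) in OA and 0.81 ± 0.09 in OOA (adjusted p = 0.000867 and 2.11e-07), and stood at 0.29 in BSA without passing (adjusted p = 0.119). Cdh23, a cadherin whose span contains that of Vsir, lies at 60138527 to 60532269, and Slc29a3 begins at 60547851. Cdh23 rose by 0.36 ± 0.09 in OA (limma adjusted p = 0.00911) and stood at 0.12 in BSA and 0.14 in OOA without passing. Unc5b, a netrin receptor and the nearest tested gene on the right at 50.5 kb, differed by 0.07 in both BSA and OA and fell from 34.2 to 22.3 FPKM in OOA (-0.60, adjusted p = 4.33e-11), while Sgpl1 at 387 kb passed in no treatment. Farther out, Spock2 rose by 0.13 in OA and 0.45 in OOA, and Ddit4 and Adamts14 fell by 1.00 and 0.58 in OOA.

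Over the 56 non-members near the 3 genes, 0 rose and 3 fell in BSA, 4 rose and 6 fell in OA, and 14 rose and 19 fell in OOA, or 32 calls there without the unnamed microRNA gene. Among all genes, 1.11% rose and 1.07% fell in BSA, 4.29% and 7.01% in OA, and 22.0% and 23.7% in OOA. The 3 calls in BSA did not hold without the low-value filter (0 calls), nor without BSA replicate 4 or Dox_BSA replicate 3 (0 each), and there was 1 call without BSA replicate 1 or 2. Without OA replicate 3, the 10 calls in OA became 6.

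Oleic acid and oligomycin were compared within each arm, in groups that all had water or all had doxycycline. These comparisons did not choose the members, but they share libraries with those that did, and successive ones share the oleic acid group. With oleic acid alone, 1 of 9 members passed in the water arm and 2 in the doxycycline arm. In OA vs BSA, Adgrg1 fell from 1.88 ± 0.13 to 1.33 ± 0.17 FPKM (SD, n = 4; log2 difference -0.31 ± 0.05 SE, limma adjusted p = 0.000515), without overlap, and the other 8 members did not pass, beside 8.29% of all genes called. With only the compared groups in the fit, the adjusted p of Adgrg1 was 0.0537. In Dox_OA vs Dox_BSA, where 6.71% of all genes passed, Adgrg3 rose by 0.22 ± 0.06 (adjusted p = 0.0255) and Acap2 fell by 0.14 ± 0.04 on the log2 scale (adjusted p = 0.0496). Both calls were lost with only the compared groups fitted (adjusted p = 0.196 and 0.246). The call of Acap2 was also lost in limma with a pseudocount of 0.1 (adjusted p = 0.0507) and without the filter on low values (0.098). Leaving out any of Dox_BSA replicates 1 and 2 or Dox_OA replicates 1, 2 and 4 also ended that of Adgrg3 (adjusted p up to 0.0802), and any of Dox_BSA replicates 1, 3 and 4 or Dox_OA replicates 2, 3 and 4 that of Acap2 (up to 0.181). Adgrg1 stood at -0.16 there (adjusted p = 0.0918), and passed with limma-voom on recovered reads (0.00997).

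Adding oligomycin to oleic acid moved 6 of 9 members in the water arm, where 56.9% of all genes passed. Adgrg1 fell from 1.33 to 0.631 FPKM (-0.51 ± 0.05 SE, adjusted p = 3.13e-08), Xxylt1 from 20.3 to 15.1 (-0.41 ± 0.05, adjusted p = 1.05e-06) and Fam43a from 7.98 to 6.04 (-0.35 ± 0.10, adjusted p = 0.00593). Adgrg3 rose from 1.78 to 2.54 FPKM (0.35 ± 0.06, adjusted p = 3.47e-05), Acap2 from 15.0 to 19.7 (0.37 ± 0.04, adjusted p = 9.76e-08) and Lsg1 from 7.14 to 9.15 (0.32 ± 0.06, adjusted p = 0.000221). The neighbours Adgrg1 and Adgrg3, and likewise Fam43a and Lsg1, thus moved in opposite directions. Slc29a3 stood at -0.08 (adjusted p = 0.239), and Tmem44 at -0.22 (adjusted p = 0.0969), which passed with a pseudocount of 0.1 or with limma-voom (0.0229 and 0.0377). Atp13a3 stood at -0.09 (adjusted p = 0.0607) and passed with limma-voom (0.00326), with a fixed sum per library (0.031), with the replicate number as a block (0.0465) and without OOA replicate 1 (0.0263).

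With doxycycline, where 33.2% of all genes passed in Dox_OOA vs Dox_OA, 5 members passed. Adgrg1 fell from 21.7 ± 0.55 to 11.5 ± 0.63 FPKM (-0.86 ± 0.05 SE, adjusted p = 3.96e-11). Slc29a3 fell from 14.9 to 13.05 FPKM (-0.18 ± 0.06, adjusted p = 0.0171), a call lost without Dox_OA replicate 1 or 2 (adjusted p = 0.065 and 0.064). Atp13a3, Acap2 and Adgrg3 rose by 0.23, 0.25 and 0.21 (adjusted p = 0.000122, 8.65e-05 and 0.0111). Fam43a stood at 0.20 ± 0.10 (adjusted p = 0.141) and Xxylt1 at -0.05 ± 0.05 (adjusted p = 0.551). With the replicate number as a block in the limma fit, Fam43a passed (adjusted p = 0.024). Ucp1 fell from 322 to 215 FPKM in the same comparison (-0.58 ± 0.07, adjusted p = 2.41e-06), a ratio of 0.668, beside 0.531 for Adgrg1, 0.873 for Slc29a3 and 1.15 for Fam43a. In the water arm Ucp1 fell as well, from 6.84 to 4.42 FPKM (-0.54 ± 0.07, limma adjusted p = 1.8e-06), a ratio of 0.646. Ucp1 thus moved with oligomycin in both arms, and its part in the members' differences was not tested.

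**Figure D3:**
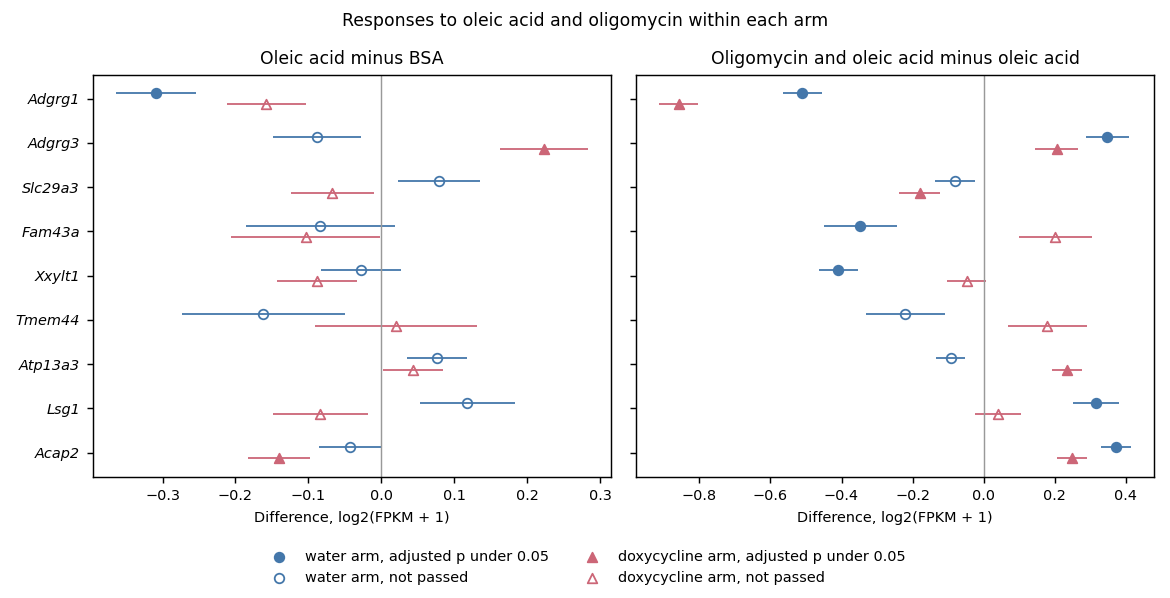
Differences on the log2(FPKM + 1) scale for oleic acid minus BSA (left) and oligomycin with oleic acid minus oleic acid alone (right) in the water arm (circles) and the doxycycline arm (triangles), with SE bars; filled symbols have an adjusted p under 0.05. Adgrg1 fell with oligomycin in both arms, by 0.51 and 0.86, whereas Fam43a and Xxylt1 fell in the water arm and did not pass in the doxycycline arm in this fit. Fam43a passed there, as a rise, with the replicate number as a block (limma adjusted p = 0.024).

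**Figure D4:**
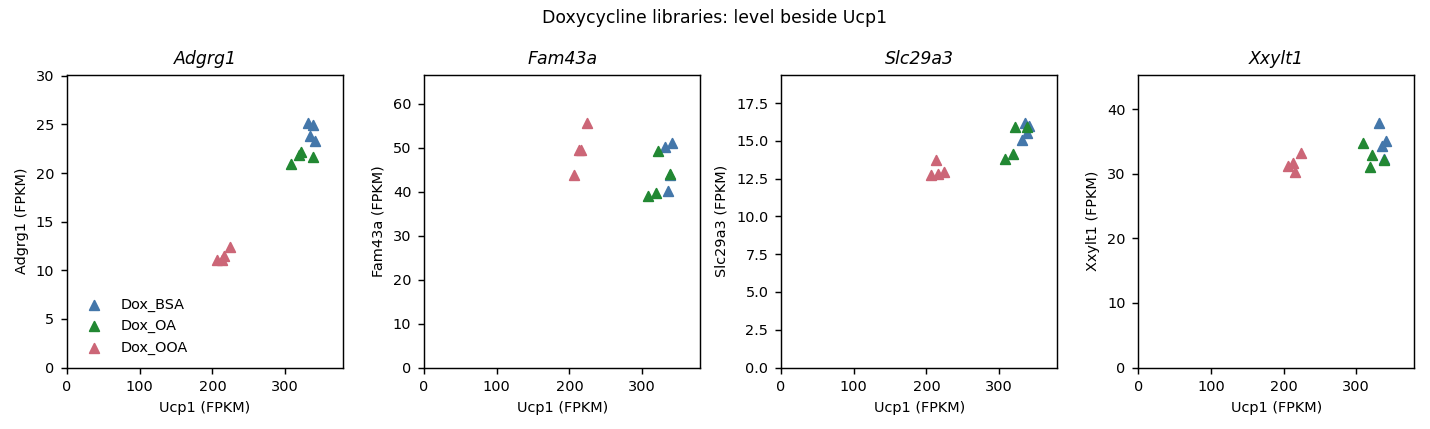
FPKM of Adgrg1, Fam43a, Slc29a3 and Xxylt1 (vertical axes) against FPKM of Ucp1 (horizontal axis) in the 12 doxycycline libraries. The 4 Dox_OOA libraries lie at 207 to 224 FPKM of Ucp1 and at 11.1 to 12.4 FPKM of Adgrg1, apart from the other 8 libraries, while their Fam43a values of 43.7 to 55.5 FPKM overlap those of the other groups.

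The difference between the arms in the response to oligomycin was tested as an interaction, the Dox_OOA minus Dox_OA difference minus the OOA minus OA difference. It uses the same libraries that chose Adgrg1, Fam43a and Slc29a3, so for these it is not independent of the choice. It passed for 5 of 9 members, beside 29.7% of all genes. It was positive for Fam43a (0.55 ± 0.14 SE, adjusted p = 0.00559), Xxylt1 (0.36 ± 0.08, adjusted p = 0.000923) and Atp13a3 (0.33 ± 0.06, adjusted p = 0.000139), which all lie on the same stretch of chromosome 16. It was negative for Lsg1, within that stretch (-0.28 ± 0.09, adjusted p = 0.0249), a call lost without the filter on low values (0.0578) and without any of 6 single libraries: OA replicates 1 and 2, OOA replicates 3 and 4, Dox_OA replicate 4 and Dox_OOA replicate 1 (0.0512 to 0.0625). Tmem44 stood at 0.40 ± 0.16, a value given without a test, since the gene passed the filter only through the doxycycline arm. For Adgrg1 the interaction depended on the scale. It was -0.35 ± 0.08 on log2(FPKM + 1) (adjusted p = 0.00124), but 0.06 with a pseudocount of 0.1 (adjusted p = 0.764) and 0.18 with limma-voom on recovered reads (adjusted p = 0.512). In plain ratios, oligomycin left 0.476 of the Adgrg1 level in the water arm and 0.531 in the doxycycline arm. No member passed the interaction for oleic acid by limma, beside 0.635% of all genes, with 2 at an unadjusted p below 0.05 and 0 by limma-voom.

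Across the 24 libraries, the genes whose log2(FPKM + 1) followed Adgrg1 most closely were Ucp1 (Pearson r = 0.983), Slc29a3 (0.976), Etl4 (0.969), Fam43a (0.964) and Xxylt1 (0.958). For Fam43a they were Ucp1 (0.983), Csad (0.973), Adgrg1 (0.964), Slc29a3 (0.961) and Xxylt1 (0.954), and for Slc29a3 they were Ucp1 (0.986), Adgrg1 (0.976), Etl4 (0.976), Fam43a (0.961) and Csad (0.948). The libraries form 2 arms, and these coefficients mostly restate the difference between them. Within the 12 doxycycline libraries, r with Ucp1 was 0.992 for Adgrg1 and 0.883 for Slc29a3, with the Dox_OOA libraries apart from the rest, and -0.36 for Fam43a. Within the 12 water libraries the same coefficients were 0.414, 0.380 and 0.351. Adgrg3 had an r of -0.37 with its neighbour Adgrg1 over all 24, and Lsg1 one of -0.17 with Fam43a.

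The pair of genes outside the members and Ucp1 in these rankings were on other chromosomes. Etl4, on chromosome 2, averaged 0.248 ± 0.034 FPKM (SD, n = 4) in BSA and 1.101 ± 0.13 in Dox_BSA. Its ratios were 4.44, 5.20 and 3.93 in BSA, OA and OOA. With water means of 0.248, 0.223 and 0.242 FPKM there, Etl4 passed the filter only through the doxycycline arm. Its difference, which also enters its r with Adgrg1 and Slc29a3, therefore had to appear and is not read as a result. Csad, on chromosome 15, which makes a decarboxylase of taurine synthesis, averaged 10.4 ± 1.14 FPKM in BSA and 18.2 ± 1.14 in Dox_BSA, for ratios of 1.76, 1.65 and 1.78 in BSA, OA and OOA. These genes were chosen for their likeness in the same libraries, so the values are a description.

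Genes of the members' families and pathways were compared with doxycycline against water from fixed lists. Of 87 such genes tested, 1 passed in BSA, 13 in OA and 58 in OOA, or 1.15%, 14.9% and 66.7%, beside 2.18%, 11.3% and 45.7% of all genes. The 13 calls in OA became 6 without OA replicate 1 or Dox_OA replicate 1 or 2, 7 without OA replicate 2, and 8 without OA or Dox_OA replicate 3. Among the 9 other adhesion receptors tested, none passed in BSA by limma (1 at an unadjusted p below 0.05, 0 by limma-voom), and 1 passed in OA, Adgrl1 (0.13, adjusted p = 0.0347), a gene named after its value was seen. In OOA 4 rose and 2 fell, among them Adgrl3 from 1.03 to 1.71 FPKM (0.41, adjusted p = 5.94e-05). The median log2 differences of these receptors were -0.07, 0.10 and 0.08, beside 2.94 to 3.29 for Adgrg1.

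Ligands and downstream signalling genes of Adgrg1 were called about as often as all genes. Of 20 genes, 0 passed in BSA by limma (2 at an unadjusted p below 0.05, 0 by limma-voom), 2 rose and 1 fell in OA, and 7 rose and 2 fell in OOA, where 45.7% of all genes passed. Tgm2, the transglutaminase that binds Adgrg1, rose from 3.18 to 5.14 FPKM in OA (0.56 ± 0.09 SE, adjusted p = 0.000229) and from 4.79 to 8.38 in OOA (0.70 ± 0.09, adjusted p = 6.12e-07). Col3a1, the collagen ligand, rose from 706 to 758 FPKM in OA (0.10, adjusted p = 0.0389). The tetraspanin Cd9 and the SRF coactivator Mrtfa rose in OOA by 0.38 each (adjusted p = 8.74e-09 and 8.97e-07).

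For Slc29a3, 14 other nucleoside transporters and salvage enzymes were tested. None passed in BSA by limma (5 at an unadjusted p below 0.05, 0 by limma-voom), 1 rose and 1 fell in OA, and 5 rose and 5 fell in OOA. Of all genes, 11.3% passed in OA and 45.7% in OOA. The kinases Tk1 and Dck, which phosphorylate deoxynucleosides, rose by 0.62 and 0.63 in OOA (adjusted p = 7.07e-09 and 1.58e-08), and Aprt, which salvages adenine, fell by 0.18 in OA and 0.38 in OOA.

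Genes listed for the large ribosomal subunit, on which Lsg1 acts, mostly fell with doxycycline in the oligomycin treatment. The list holds maturation factors of that subunit and the ribosomal proteins Rpl10 and Rplp0. Of 16 tested, 0 passed in BSA by limma (1 at an unadjusted p below 0.05, 0 by limma-voom). In OA 4 fell, beside 7.01% of all genes, and in OOA 15 fell, beside 23.7%, with none rising in either. The median was -0.51 in OOA against -0.01 over all genes. Gtpbp4 fell from 15.4 to 8.64 FPKM (-0.77, adjusted p = 1.89e-10), Gnl3 from 26.5 to 15.5 (-0.73) and Rrs1 from 34.4 to 18.1 (-0.89). In OOA vs OA, 13 of the 16 rose and none fell, where 56.9% of all genes passed in either direction, and Lsg1 rose there too. The OOA libraries enter both comparisons with opposite sign, so these counts are not independent.

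Of 12 tested genes of O-glucose glycans and Notch signalling, to which Xxylt1 belongs, 1 rose in BSA, 1 rose and 1 fell in OA, and 5 rose and 3 fell in OOA. The shares over all genes, for these and for the ARF6 and P5 genes below, were 2.18% in BSA, 11.3% in OA and 45.7% in OOA. Notch3 rose in BSA from 16.0 to 20.2 FPKM (0.32, adjusted p = 0.00222) and in OA (0.54, adjusted p = 1.78e-06) but fell by 0.14 in OOA (adjusted p = 0.0438). The call in BSA was lost with only the compared groups fitted. Gxylt2, a xylosyltransferase acting on the same glycans, fell by 0.21 in OA (adjusted p = 0.0274) and rose from 3.69 to 8.18 FPKM in OOA (0.97, adjusted p = 6.62e-12), and the fringe enzyme Lfng rose from 3.91 to 9.65 (1.12, adjusted p = 4.3e-12). Of 14 genes around ARF6 and its GTPase-activating proteins, the relatives of Acap2, none passed in BSA by limma (1 at an unadjusted p below 0.05, 0 by limma-voom), Asap3 rose in OA (0.29, adjusted p = 0.0162), and 4 rose and 4 fell in OOA. Of the P5 ATPases related to Atp13a3, both tested passed in OOA, where Atp13a1 fell (-0.34, adjusted p = 0.000104) and Atp13a2 rose (0.25, adjusted p = 0.0169), and neither passed in BSA or OA by limma (0 at an unadjusted p below 0.05 and 0 by limma-voom in each).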

How the data were processed

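FPKM values for 56748 Ensembl genes in 24 libraries were computed by the authors and deposited, with gene lengths and GRCm39 positions, per the file headers. Per the labels' protocols, a NEBNext Ultra II RNA kit was used for the libraries. Tools listed in the submitters' processing notes are HISAT2, STAR, STAR-Fusion, HTSeq, edgeR and DESeq2, with mm39 and GRCm39 as builds, and neither versions nor roles are stated. Multiplied by gene length, every value was within 0.01 of a whole number of reads, which gave 20370651 to 29410667 reads per library.

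Log2(FPKM + 1) was fitted with limma 3.58.1 in R 4.3.3 (lmFit, eBayes with trend and robust estimation) in 1 model of 6 group means with 18 residual degrees of freedom, after keeping the 12904 genes with at least 1 FPKM in at least 4 libraries. Two-sided p-values were adjusted over all genes (Benjamini-Hochberg) in each of 9 contrasts, with a threshold of 0.05. Groups were taken from sample titles. The alternatives were a pseudocount of 0.1, no filter, only the compared groups, a replicate block, limma-voom on the recovered reads, a fixed sum per library, leaving out each library and other distances. The steps were tested on simulated data.

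The members and gene lists were chosen with earlier results of these data known. The text names the members, Ucp1, up to 6 passing and the 2 nearest tested neighbours per side within 1 Mb of Adgrg1, Fam43a and Slc29a3, up to 4 genes per list by smallest p, and the 5 genes most like each of the 3. Genes that this rule named are not all described, and the result of 1 of them is not reported here. Promoters come from RefSeq on GRCm38.p6.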

Additional observations from a re-analysis of the deposited data

Results flagged for a closer look

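Of 54 groups of 4 libraries examined (9 members in 6 groups), 1 held a library apart from the rest. Adgrg1 in BSA was at 2.07 FPKM in replicate 1 and at 1.81 in each of the other 3 libraries, so that the gap took a share of 0.993 of the group's range, above Dixon's critical value for 4 samples. The 3 close values make that share large, and chance gives such a library in about 1 in 20 groups.

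The doxycycline difference differed between OOA and OA for 5 members by the interaction test in limma. The change on the log2(FPKM + 1) scale was 0.549 for Fam43a, 0.362 for Xxylt1, 0.327 for Atp13a3, -0.278 for Lsg1 and -0.348 for Adgrg1, the last of which turned positive with other scales.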

How the results depend on the processing

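Over 27 doxycycline differences of the members, 353 alternative values stayed within the spread between replicates and 25 did not, all of them of Adgrg1, Fam43a, Slc29a3, Tmem44, Adgrg3 or Acap2. With a pseudocount of 0.1, those of Adgrg1 were 3.63, 3.94 and 3.995 in BSA, OA and OOA, that of Fam43a in OOA 3.01, and those of Slc29a3 in OA and OOA 0.99 and 0.89. With limma-voom they were 3.70, 4.06 and 4.25 for Adgrg1, 3.08 for Fam43a in OOA, and 1.16, 1.02 and 0.95 for Slc29a3, since adding 1 understates low genes. Of 54 tests of members, 19 passed, and 848 alternative values kept direction and side of the threshold, while 25 no longer passed, 13 newly passed and 14 changed sign.

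The interaction of Adgrg1 for oligomycin reversed with a pseudocount of 0.1 (adjusted p = 0.764) and with limma-voom (0.512). That of Fam43a for oleic acid, near 0, reversed with a fixed sum per library (0.998) and without some libraries (adjusted p 0.868 to 0.995 over all those left out). Fam43a in OA vs BSA reversed without OA replicate 3 (range 0.566 to 0.973), and Tmem44 in Dox_OA vs Dox_BSA without Dox_BSA replicate 1 or Dox_OA replicate 2 or 3 (range 0.644 to 0.989). The cause was not tested. Neighbours called in BSA numbered 3, with 0 without the filter or within 0.5 Mb and 0 to 3 with a library left out. In OA they numbered 10, with 3 within 0.5 Mb and 6 to 10 with a library left out. In OOA they numbered 33, with 14 within 0.5 Mb and 57 within 2 Mb, as fewer or more genes entered. List genes called in BSA went from 1 to 0 with only the compared groups, and in OA from 13 to 6 without the filter and to 6 to 13 with a library left out.

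Whether replicate numbers pair the libraries is not settled by these values. Of 60 same-numbered pairs, 9 had a correlation of deviations above 0.1 (range -0.0436 to 0.175), although 18 of 24 libraries were closest to their own number. With the replicate number as a block, 51 of 54 member tests kept their call, and 3 more passed the threshold: Fam43a in Dox_OOA vs Dox_OA (adjusted p = 0.024), Atp13a3 in OOA vs OA (0.0465) and Tmem44 in the interaction for oligomycin. The last is not read as a result, since Tmem44 passed the filter only through the doxycycline arm. Depth limited Tmem44 and Adgrg1 most, with as few as 51 and 67 reads in a water library.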
